A study of Mus musculus with 12 samples.

Results

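The genes described here are the adult globin genes *Hbb-bs*, *Hbb-bt*, *Hba-a1* and *Hba-a2* and the red cell genes *Alas2*, *Bpgm* and *Slc4a1*, in GFP(+) cells of the *Prom1* lineage sorted from mouse liver. They were taken from the table by their symbols. Of 8 genes set for the group, 7 were analysed among the 16971 genes of the deposited table, and 1 is not analysed here. All 7 passed a filter of at least 10 normalized counts summed over the libraries, which 12889 genes passed. Since the filter sums all groups, a gene can pass it through its day 0 level alone. *Slc4a1* did so, as its BDL counts together stay below 10. It is therefore weak support in the counts of lower genes given below.

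Every mouse was Prom1CreERT2-nLacZ/+;Rosa26Lsl-GFP/+ on a C57BL/6 background (a C57BL/6N knock-in crossed to a C57BL/6J reporter), both sexes were included, and each mouse received tamoxifen at 6 weeks of age, 7 days before surgery. The Cre is knocked into *Prom1*, so all groups carried 1 altered *Prom1* allele, and GFP marks cells that expressed *Prom1* at tamoxifen together with their progeny. The 3 groups were day 0 (n = 3, labelled sham and described by the study as before surgery), bile duct ligation (BDL) with collection on day 3 (n = 3), and BDL with collection on day 14 (n = 4 of 6 labelled libraries, the others, not named, having been left out by the study for too few reads). No sham group of day 3 or day 14 was sequenced, so ligation, surgery and time since tamoxifen cannot be told apart. The sexes were not balanced between the groups. The study lists mostly females among the mice before surgery and mostly males in both BDL groups. Sex therefore cannot be told apart from group either, and its part in the differences was not tested. Livers were digested, red cells were removed with a lysis buffer, the nonparenchymal fraction was enriched by centrifugation, and living GFP(+) cells were gated against wild-type livers.

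Haemoglobin is a tetramer of α and β globin chains, each holding a haem group that binds oxygen. Red cell precursors transcribe the globin genes at very high levels, and *Alas2* encodes the erythroid form of the enzyme that starts haem synthesis. *Bpgm* encodes the enzyme that makes 2,3-bisphosphoglycerate, the metabolite that lowers the oxygen affinity of haemoglobin, and *Slc4a1* encodes band 3, the chloride and bicarbonate exchanger that also anchors the red cell membrane to its skeleton. Reticulocytes have lost the nucleus and still carry globin mRNA. The fetal liver is a site of red cell formation, whereas in the adult mouse this takes place mainly in bone marrow and spleen.

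The upstream sequences of the genes are shown because the genes had similar ratios between groups and because the globin copies within each pair have near-identical coding sequences. Each line holds the 250 bases before the RefSeq start on GRCm38.p6, written 5′ to 3′ on the strand of the gene. The gene intervals given below begin upstream of these RefSeq starts, so each window lies partly inside the interval of its gene. Capitals mark matches on either strand to 4 kinds of short motif. The first is a GATA word, which was taken as AGATAA or, with another first letter, TGATAA, and also with a final G as AGATAG in the first form and TGATAG in the other. The second motif searched was CACCC. The third was CCAAT, known from many promoters. The fourth was ATATAA, a form of the TATA box.
Hbb-bs, chr7:103827929-103828178, minus strand: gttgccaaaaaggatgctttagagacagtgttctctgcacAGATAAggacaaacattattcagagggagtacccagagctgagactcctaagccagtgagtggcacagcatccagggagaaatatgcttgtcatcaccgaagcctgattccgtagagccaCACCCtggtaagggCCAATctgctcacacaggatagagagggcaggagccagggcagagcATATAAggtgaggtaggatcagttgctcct
Hbb-bt, chr7:103813924-103814173, minus strand: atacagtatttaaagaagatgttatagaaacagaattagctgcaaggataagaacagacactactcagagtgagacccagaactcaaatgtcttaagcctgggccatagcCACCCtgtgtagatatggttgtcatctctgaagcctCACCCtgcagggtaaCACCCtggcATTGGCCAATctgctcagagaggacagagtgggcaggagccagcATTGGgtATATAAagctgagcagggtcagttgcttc
Hba-a1, chr11:32283422-32283671, plus strand: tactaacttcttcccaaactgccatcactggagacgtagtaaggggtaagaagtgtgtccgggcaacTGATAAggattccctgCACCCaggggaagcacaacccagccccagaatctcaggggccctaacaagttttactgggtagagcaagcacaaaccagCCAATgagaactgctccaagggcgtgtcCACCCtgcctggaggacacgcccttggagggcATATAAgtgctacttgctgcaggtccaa
Alas2, chrX:150547167-150547416, plus strand: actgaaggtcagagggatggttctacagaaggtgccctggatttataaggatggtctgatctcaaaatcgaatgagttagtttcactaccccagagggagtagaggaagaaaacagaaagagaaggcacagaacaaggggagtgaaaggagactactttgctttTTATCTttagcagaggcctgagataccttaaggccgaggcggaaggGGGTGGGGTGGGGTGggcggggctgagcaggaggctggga
Bpgm, chr6:34476106-34476355, plus strand: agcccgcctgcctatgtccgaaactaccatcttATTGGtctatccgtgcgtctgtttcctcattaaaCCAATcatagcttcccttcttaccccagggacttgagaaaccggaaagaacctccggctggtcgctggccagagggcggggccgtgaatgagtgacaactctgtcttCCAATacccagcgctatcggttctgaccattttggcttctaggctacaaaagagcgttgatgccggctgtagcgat

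RefSeq promoter entries matched 6 of the 7 genes, all but *Slc4a1*. ATATAA was found in 4 of these 6, the 4 globin genes, within 31 bases of the start, and in 9.51% of 27025 mouse promoters of the same length. A GATA word was found in 4 of 6 (*Hbb-bs*, *Hba-a1*, *Hba-a2* and *Alas2*) and in 27.1% of all promoters. CACCC was present in 5 of 6, all but *Bpgm*, against 51.3% of all promoters, and CCAAT in 5 of 6, all but *Alas2*, against 34.5%. In *Hbb-bt*, 2 of the CCAAT matches lie directly beside each other. These matches describe letters in the window and are not binding sites shown by these data.

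The *Hba-a2* window is not printed, since it shares 247 bases with that of *Hba-a1* in 1 unbroken run. *Hba-a1* (chr11:32283511-32284465) and *Hba-a2* (chr11:32296489-32297298) lie 12023 bases apart on the plus strand, and their coding sequences of 429 bases differ at 1 base. *Hbb-bs* (chr7:103826534-103828096) and *Hbb-bt* (chr7:103812524-103813996) lie 12537 bases apart on the minus strand. Their coding sequences of 444 bases also differ at 1 base, although their upstream windows are 68.4% identical. The untranslated parts of the transcripts, which also give reads, were not compared. How the counting divided reads between such copies is not given in the sources used here, so the split within each pair is uncertain and the sum of a pair is the safer value. The other genes are single, with *Alas2* at chrX:150547375-150570638 (plus strand), *Bpgm* at chr6:34476207-34505613 (plus strand) and *Slc4a1* at chr11:102348824-102366203 (minus strand), all on mm10.

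The table gives 1 normalized count per gene and group, a least squares mean, together with the highest library and the arithmetic and geometric means over 10 libraries. It has 0 columns of values per library. No test between groups and no p-value could therefore be computed from the values used here, and the depth of each library is unknown. In place of a test, an approximate SE of each log2 ratio was computed from the gap between the group means and the geometric mean, taking the log2 spread as equal in all groups. Limits on single libraries follow by arithmetic from the means, the highest library and the geometric mean.

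Globin mRNA was abundant in the day 0 cells and lower in both BDL groups. The summed normalized count of the 4 globin genes was 73610 at day 0, 7630 on BDL day 3 and 4415 on BDL day 14. The sum was 9.65-fold lower on BDL day 3 and 16.7-fold lower on BDL day 14 than at day 0. As a share of the summed normalized counts of all genes, globin made up 7.98% at day 0, 0.904% on BDL day 3 and 0.60% on BDL day 14. Without the globin genes, the sums of the table differed by log2 ratios of only -0.02 and -0.22 from day 0. In cells sorted and sequenced in bulk, fewer red cell precursors or reticulocytes and less globin RNA per cell cannot be told apart.

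**Figure D1:**
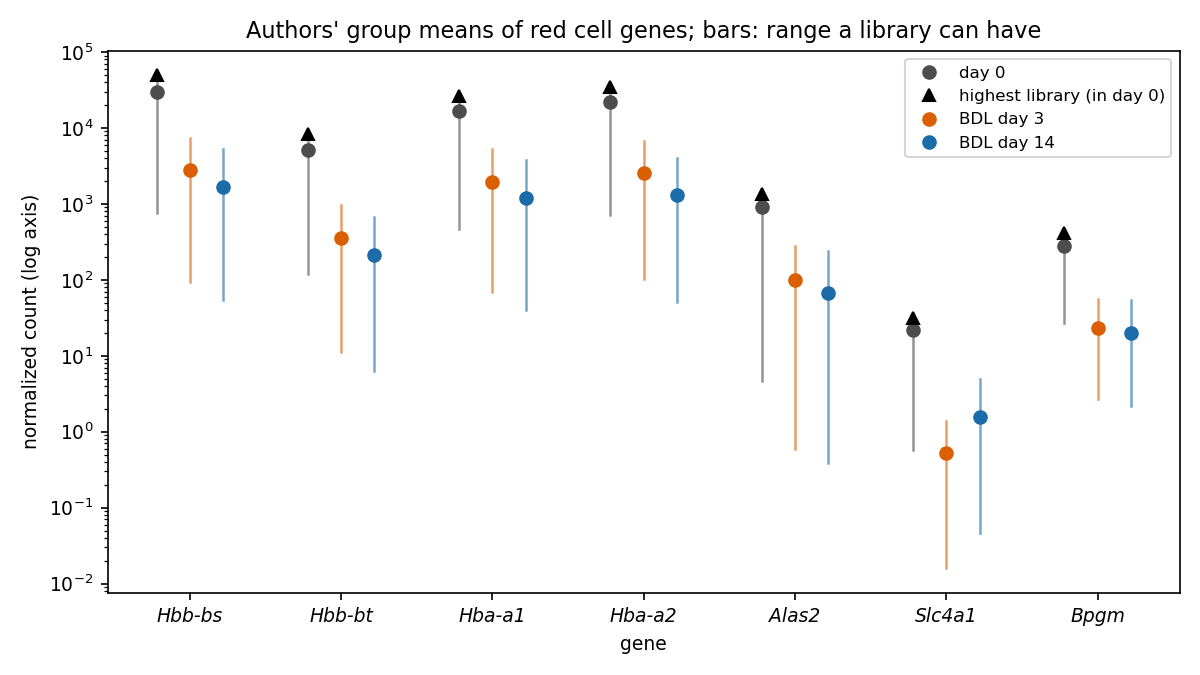
Normalized counts (log axis) of the 7 genes. Circles are the group means of day 0 (n = 3), BDL day 3 (n = 3) and BDL day 14 (n = 4), triangles are the highest library, and bars span the values that a single library could have under the deposited means, so they are limits and not confidence intervals. All BDL means lie well below the day 0 mean, while the bars of day 0 reach down into those of the BDL groups.

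*Hbb-bs* encodes an adult β chain. Its mean was 29700 at day 0, 2760 on BDL day 3 and 1680 on BDL day 14, which ranked 3, 36 and 41 among all genes. The highest library held 49300, and the other day 0 libraries averaged 19900, so the day 0 libraries were far apart. Their SD lay between 16974 and 25586. No BDL day 3 library could exceed 7357 and no BDL day 14 library 5272, whereas the lowest day 0 library could be as low as 755, so an overlap is possible. *Hbb-bs* was 10.8-fold lower on BDL day 3 (log2 ratio -3.43, approximate SE 1.05) and 17.7-fold lower on BDL day 14 (log2 ratio -4.14, approximate SE 0.985).

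*Hbb-bt* is the neighbouring adult β gene. Its mean was 5110 at day 0, 360 on BDL day 3 and 215 on BDL day 14. The highest library reached 8280 against 3525 for the mean of the other day 0 libraries, and the highest possible BDL values were 965 on day 3 and 681 on day 14. Among the globins it had the largest log2 ratios from day 0, -3.83 (approximate SE 1.06) and -4.57 (approximate SE 0.995), or 14.2-fold and 23.8-fold lower. *Hbb-bt* supplied 14.7% of the β counts at day 0, 11.5% on BDL day 3 and 11.3% on BDL day 14, a split that the near-identical coding sequences leave uncertain.

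*Hba-a2* encodes an adult α chain. Its mean was 22000 at day 0, 2540 on BDL day 3 and 1320 on BDL day 14, with a highest library of 34400 and a mean of 15800 in the other day 0 libraries. It was 8.66-fold lower on BDL day 3 (log2 ratio -3.11, approximate SE 1.00) and 16.7-fold lower on BDL day 14 (log2 ratio -4.06, approximate SE 0.937). *Hba-a1*, the neighbouring α gene, had means of 16800, 1970 and 1200, a highest library of 26200 and a mean of 12100 in the other day 0 libraries. Its differences were the smallest of the globins, 8.53-fold on BDL day 3 (log2 ratio -3.09, approximate SE 1.03) and 14.0-fold on BDL day 14 (log2 ratio -3.81, approximate SE 0.965). Each SE belongs to the ratio of 1 gene and not to a difference between genes counted in the same libraries. The error of such a difference is unknown here, so whether the 4 globin genes differed among themselves in their change could not be judged.

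The balance of α and β chains differed less between the groups than their levels. Per kilobase of exon (all annotated exons of a gene merged), the α sum over the β sum was 1.17 at day 0, 1.52 on BDL day 3 and 1.39 on BDL day 14. *Hba-a2* gave 56.7%, 56.3% and 52.4% of the α counts in the same order. On the same per-kilobase scale, the level of *Hbb-bs* was 38672 at day 0 and that of *Hba-a2* was 32984. No library spread is available for these ratios, so differences between groups in them could not be set against replicate error.

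*Alas2*, on the X chromosome, had means of 920 at day 0, 98.9 on BDL day 3 and 67.6 on BDL day 14. The highest library held 1370 and the other day 0 libraries averaged 695. *Alas2* was 9.30-fold lower on BDL day 3 (log2 ratio -3.22, approximate SE 1.32) and 13.6-fold lower on BDL day 14 (log2 ratio -3.77, approximate SE 1.23), with the widest spread of the 7 genes (approximate SD 1.61 log2 units). Relative to the globin sum it stayed within a narrow range, at 1.25%, 1.30% and 1.53%. *Alas1*, which encodes the enzyme form used by most other cells, had means of 22.1, 26.0 and 27.2. In counts, the level of *Alas2* was 41.6 times that of *Alas1* at day 0, 3.80 times on BDL day 3 and 2.49 times on BDL day 14. Per kilobase of merged exons these ratios were 107, 9.77 and 6.39. They depend on that choice of length, which can exceed the length of the mRNA.

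*Bpgm* had the narrowest spread of the group, with an approximate SD of 0.947 log2 units. Its mean was 281 at day 0, 23.4 on BDL day 3 and 20.2 on BDL day 14, and the highest library held 419 against 212 for the mean of the other day 0 libraries. It was 12.0-fold lower on BDL day 3 (log2 ratio -3.59, approximate SE 0.773) and 13.9-fold lower on BDL day 14 (log2 ratio -3.80, approximate SE 0.723). It was the only one of the 7 genes for which the deposited means leave no room for an overlap between the libraries of 2 groups, day 0 and BDL day 14. Taken singly, its lowest day 0 library could be 26.8 and its highest BDL day 14 library 53.7, but both cannot hold at once under the geometric mean. On BDL day 3, with a highest possible library of 55.4, the same arithmetic leaves room for an overlap.

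*Slc4a1* had by far the lowest counts of the 7 genes. Its mean was 21.6 at day 0, 0.517 on BDL day 3 and 1.57 on BDL day 14. The highest library held 31.4, and the other day 0 libraries averaged 16.7. It was 41.8-fold lower on BDL day 3 (log2 ratio -5.38, approximate SE 1.04) and 13.8-fold lower on BDL day 14 (log2 ratio -3.78, approximate SE 0.973). The BDL values stand for few reads, and adding 1 to each mean moved the log2 ratio on BDL day 3 to -3.90.

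**Figure D2:**
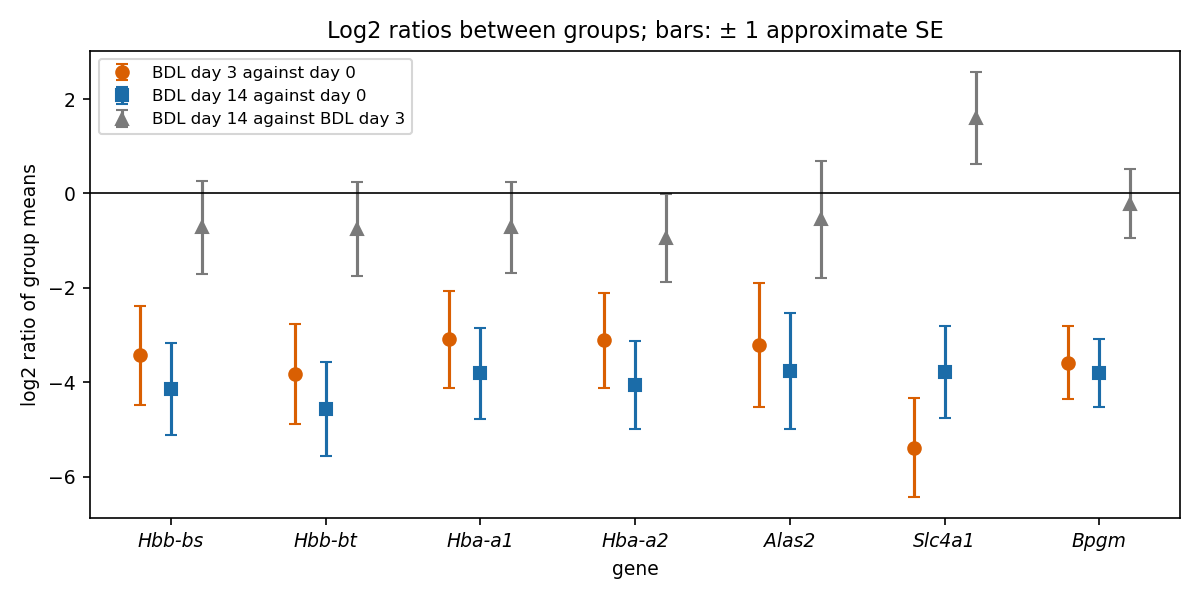
Log2 ratios of group means for the 7 genes in the 3 comparisons, with bars of 1 approximate SE either way. The ratios against day 0 lie between -5.38 and -3.09, and those of BDL day 14 against BDL day 3 lie within 2 approximate SE of 0.

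Set against all genes, the differences from day 0 were near the low end. On BDL day 3, all 7 genes were more than 1.5-fold lower than at day 0, as were 29.2% of all genes kept, and 5 were also lower by more than 3 approximate SE, against 7.22% of all genes. The others were *Hba-a1* and *Alas2*, which lay 2.998 and 2.44 approximate SE below 0. On BDL day 14, all 7 were more than 1.5-fold lower (28.8% of all genes) and all 7 by more than 3 approximate SE (9.82%). Groups that cannot overlap, with a fold above 1.5, were found for none of the 7 on BDL day 3 (2.01% of all genes) and for *Bpgm* on BDL day 14 (2.41%). The median log2 ratio of the 7 genes was -3.43 on BDL day 3 and -3.81 on BDL day 14, beside -0.02 and -0.04 for all genes kept. Between 0.892% and 4.14% of the genes kept had a lower log2 ratio than each of the 7 on BDL day 3, and between 1.31% and 2.58% on BDL day 14. The 0.892% belongs to *Slc4a1*, which passed the filter only through its day 0 level. The 2 comparisons share the day 0 libraries and are not independent of each other.

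The scaling of the group means moved the values of the 7 genes but not their direction. After quantile normalization the log2 ratio of *Hbb-bs* on BDL day 14 was -3.46 in place of -4.14, and that of *Slc4a1* on BDL day 3 was -4.69 in place of -5.38. Of all genes past 1.5-fold, 60.3% were lower on BDL day 3 and 57.6% on BDL day 14, and after quantile normalization these shares were 44.1% and 45.3%. With equal sums of the means outside the globins they were 58.5% and 43.5%. Quantile normalization moved the median log2 ratio of all genes to 0.12 on BDL day 3, and equal sums moved it to 0.18 on BDL day 14. Under each of these scalings all 7 genes were more than 1.5-fold lower than day 0 in both comparisons.

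In absolute normalized counts the globins were among the genes with the largest differences in the table. On BDL day 14, *Hbb-bs* had a difference of 28020 counts from day 0, the second largest decrease of all genes, followed by *Hba-a2* with 20680 in place 3 and *Hba-a1* with 15600 in place 5. On BDL day 3 these genes took places 3, 4 and 5. *Hbb-bt* stood in place 14 on BDL day 3 and in place 18 on BDL day 14.

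For each of the 7 genes the highest library of the 10 belonged to day 0, since its count exceeded the whole sum of either BDL group. That library held between 48.5% and 55.3% of the day 0 sum of 3 libraries. Whether it was the same library for all 7 genes is not shown by the table. With the highest library of each gene left out, the log2 ratios lay between -5.01 and -2.62 on BDL day 3 and between -4.04 and -3.33 on BDL day 14. The approximate log2 SD of the 7 genes, 0.947 to 1.61, was above the median of 0.576 over all genes kept.

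Between the 2 BDL groups the differences were smaller than those from day 0. Of the 7 genes, the 4 globins were more than 1.5-fold lower on BDL day 14 than on BDL day 3 (19.7% of all genes) and *Slc4a1* was more than 1.5-fold higher (21.2%). Quantile normalization and equal sums outside the globins each left 1 of the 4 globins past that fold. The log2 ratios of the globins ran from -0.94 for *Hba-a2* to -0.72 for *Hba-a1*, with approximate SEs of 0.937 to 0.995. *Alas2* had a log2 ratio of -0.55 (approximate SE 1.23) and *Bpgm* of -0.21 (approximate SE 0.723). *Slc4a1* was 3.04-fold higher (log2 ratio 1.60, approximate SE 0.973), and with 1 added to each mean its log2 ratio was 0.76. None of the 7 passed 3 approximate SE in either direction, which 5.6% of all genes did as lower and 5.66% as higher.

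**Figure D3:**
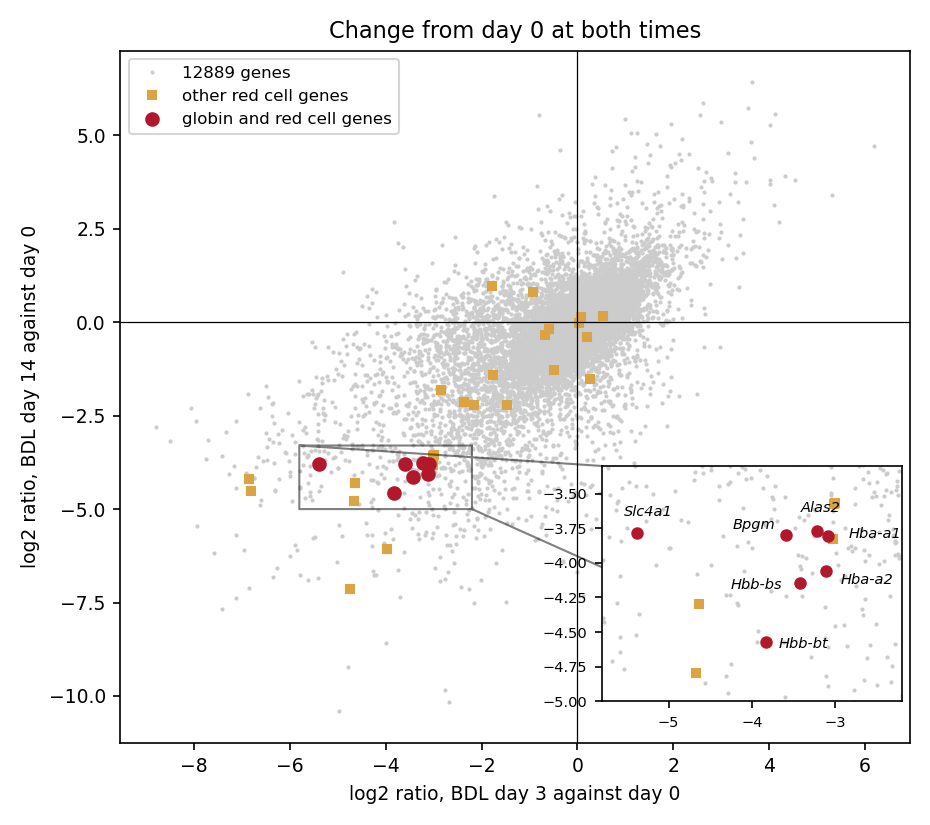
Log2 ratios against day 0 of 12889 genes on BDL day 3 (horizontal axis) and BDL day 14 (vertical axis), with the 7 genes in red and other red cell genes (membrane and skeleton, erythroblast and reticulocyte) in yellow. The inset enlarges the region that holds the 7 genes, all below 0 on both axes, and both axes share the day 0 means, which ties the points together.

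Among all genes kept, the 10 whose 2 log2 ratios lay nearest to the median of the globins (-3.27 on BDL day 3 and -4.10 on BDL day 14) were *Mamdc2*, *Car3*, *Hbq1b*, *Skap1*, *Tuba8*, *Aadac*, *Gm20319*, *Tppp*, *Rassf9* and *Pcsk6*, at distances of 0.0315 to 0.320 log2 units over 3 group means. *Hbq1b*, which encodes a theta globin and lies between the α genes, had means of 3.52 at day 0, 0.345 on BDL day 3 and 0.225 on BDL day 14, the last at the floor (a mean of up to 4 times the lowest mean of its group, read as not detected). Its highest library, 9.63, held 91.2% of the day 0 sum, so its day 0 level rested on 1 library, and without it the log2 ratio on BDL day 3 was -0.43. *Car3* encodes a carbonic anhydrase and had means of 29.3, 2.75 and 1.78. *Tuba8*, *Tppp* and *Rassf9* were also at the floor on BDL day 14 (0.186, 0.175 and 0.227), so their ratios there are bounds. The highest library of *Skap1* held 75.5% of its day 0 sum. The approximate SEs of the ratios of the 10 genes, 0.388 to 1.71, exceed all these distances, so which genes lie nearest is uncertain.

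Most genes of the red cell membrane and skeleton were lower after BDL. Of 18 genes in the list, 15 were in the table and 10 passed the filter. On BDL day 3, 9 of the 10 were more than 1.5-fold lower (29.2% of all genes, median log2 ratio -2.69), and *Slc2a1*, a glucose transporter, had means of 14.6 and 15.0. On BDL day 14, 7 were lower and 2 higher (28.8% and 21.2% of all genes, median log2 ratio -2.98). *Epb41*, which encodes the skeletal protein 4.1, had means of 122, 36.0 and 45.8. The genes higher on BDL day 14 were *Aqp1*, a water channel gene also used by endothelial cells and cholangiocytes, with means of 367, 107 and 715, and *Gypc*, with means of 8.16, 4.27 and 14.4.

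Genes known from erythroblasts and reticulocytes were divided. Of 20 in the list, 15 were in the table and 14 passed the filter, and 9 of these were lower and 0 higher at each time (median log2 ratios -1.07 and -1.67), where 29.2% and 28.8% of all genes were lower. *Trim10*, an erythroid gene, had 13.3 at day 0, was at the floor on BDL day 3, at least 45.6-fold lower (at least 30.5-fold without the highest library), and was 0.586 on BDL day 14. *Tfrc*, the transferrin receptor gene, had 22.7, 8.22 and 4.91. The most abundant genes of the list, which many cells use, differed less. *Prdx2* had means of 184, 212 and 140, *Mkrn1* of 167, 104 and 131, *Bnip3l* of 153, 101 and 134, and *Slc25a39* of 145, 104 and 59.6.

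Among the genes of haem synthesis other than *Alas2*, the shares that were lower lay near those of all genes. All 12 genes of the list passed the filter, with 3 lower and 1 higher on BDL day 3 and 4 lower and 0 higher on BDL day 14 (median log2 ratios -0.17 and -0.36), beside 29.2% and 28.8% of all genes lower. *Fech*, which encodes the enzyme that inserts iron into the ring, had means of 90.8, 34.9 and 50.4. *Slc25a37*, the mitochondrial iron importer gene also called mitoferrin-1, had 35.7, 8.15 and 10.8 (log2 ratios -2.13 and -1.72, approximate SEs 0.512 and 0.479). The third lower gene on BDL day 3 was *Slc25a38* with 10.4 and 6.68, and the higher gene was *Tmem14c* with 94.9 and 166. On BDL day 14 *Alad* (11.6 and 7.24) and *Uros* (4.48 and 2.43) were also lower.

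Of the erythroid transcription factors, 8 of 11 were in the table, and *Gata1*, *Klf1* and *Gfi1b* were not. On BDL day 3, 4 were more than 1.5-fold lower (*Gata2*, *Tal1*, *Nfe2* and *Bcl11a*), beside 29.2% of all genes, and none passed 3 approximate SE. On BDL day 14, *Bcl11a* was lower and *Tal1* higher by more than 1.5-fold, and each of these rested on 1 library. *Bcl11a* had means of 4.72, 1.07 and 0.987, and its highest library, 13.1, lay in day 0. Without it the other day 0 libraries averaged 0.53 and the log2 ratios turned from -2.14 to 1.01 on BDL day 3 and from -2.26 to 0.90 on BDL day 14. *Tal1* had means of 3.07, 0.446 and 6.44, with a highest library of 18.5 in BDL day 14. Without it the log2 ratio of *Tal1* on BDL day 14 turned from 1.07 to -0.34. *Lmo2*, *Ldb1* and *Ikzf1*, which other blood cells also express, had means of 54.0, 46.9 and 41.0 at day 0 and 61.9, 65.9 and 53.0 on BDL day 14.

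Several glycolytic genes related to *Bpgm* were higher after BDL. Of 8 genes analysed, 6 were more than 1.5-fold higher (19.2% of all genes) and 1 lower on BDL day 3, and 4 were higher (21.2% of all genes) and 1 lower on BDL day 14. *Pgam1*, which encodes the related phosphoglycerate mutase, had means of 86.1, 172 and 220, and *Pkm* of 287, 932 and 912. The lower gene was *Pklr*, the pyruvate kinase gene of red cells and hepatocytes, which went from 3.39 at day 0 to the floor in both BDL groups, at least 11.6-fold and 13.9-fold lower. Its highest library, 6.71, lay in day 0, and without it these bounds were 5.93-fold and 7.09-fold. Of the 4 other bicarbonate and anion exchanger genes kept, 1 was lower on BDL day 3 and 3 on BDL day 14 (29.2% and 28.8% of all genes). *Slc4a2* had means of 18.2, 15.3 and 11.8.

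Genes of haemoglobin and haem clearance, which belong mainly to macrophages and hepatocytes, numbered 17. On BDL day 3, 9 were higher and 3 lower, beside 19.2% and 29.2% of all genes, and without the highest library of each gene 9 were higher and 1 lower. On BDL day 14, 4 were higher and 8 lower, beside 21.2% and 28.8% of all genes. *Ftl1* and *Fth1*, the ferritin chain genes, had means of 6730 and 2290 at day 0, 15000 and 5570 on BDL day 3, and 9040 and 4420 on BDL day 14. *Hmox1*, the haem oxygenase gene, had 606, 3140 and 840 (log2 ratios 2.37 and 0.47, approximate SEs 0.383 and 0.359). *Marco*, a scavenger receptor gene of macrophages, had 694, 3920 and 183.

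**Figure D4:**
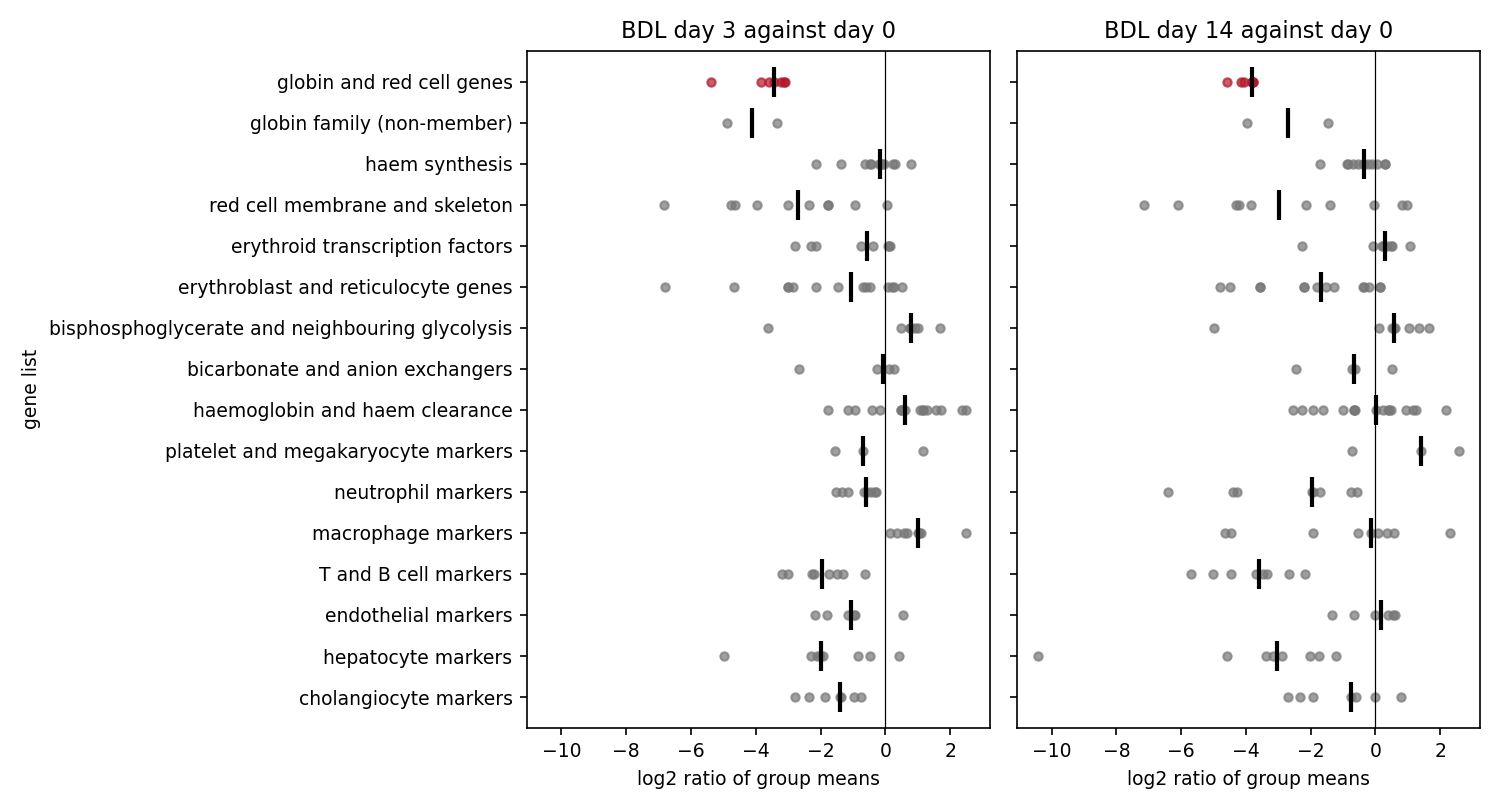
Log2 ratios of group means against day 0 for the 7 genes (red) and the kept genes of each list (grey), on BDL day 3 (left) and BDL day 14 (right), where vertical ticks are medians and genes at the floor are drawn at their listed mean, which is a bound. The 7 genes sit at medians of -3.43 and -3.81, and T and B cell markers and hepatocyte markers are also below 0 on BDL day 14.

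Summed markers of T and B cells, neutrophils and hepatocytes were lower than at day 0 at both times, as were the red cell genes. Macrophage markers were divided. On BDL day 3, 6 of 9 were higher and 0 lower (19.2% and 29.2% of all genes). On BDL day 14, 1 was higher and 3 lower (21.2% and 28.8% of all genes). The sorted cells carried the cholangiocyte markers *Krt19* (means 21.5, 12.7 and 14.3) and *Epcam* (12.9, 4.97 and 7.69) at low levels, and *Prom1* itself at 6.66, 0.956 and 1.76. Macrophage markers summed to 10447, 20220 and 14236 in the 3 groups, against 525, 203 and 830 for 10 cholangiocyte markers, of which 3 did not pass the filter. Most of the macrophage sum on BDL day 14 was *Lyz2* (2280, 4560 and 11200, highest library 19100). The 3 lower macrophage markers were *Clec4f* (4610, 6890 and 185), *Timd4* (268, 579 and 12.1) and *Marco* (694, 3920 and 183). Most of the cholangiocyte sum was *Spp1* (459, 175 and 792), which macrophages can also express. The defining markers of the labelled lineage were thus present at low levels. T and B cell markers summed to 229, 71.2 and 27.0, with 8 of 8 lower in both comparisons with day 0 (median log2 ratios -1.97 and -3.58). Of all genes, 29.2% were lower on BDL day 3 and 28.8% on BDL day 14. Without the highest library of each gene, 6 were lower and 1 higher on BDL day 3. By more than 3 approximate SE, 0 T and B cell markers were lower on BDL day 3 and 4 on BDL day 14 (7.22% and 9.82% of all genes). Neutrophil markers summed to 570, 281 and 169, with 4 and 7 of 8 lower (29.2% and 28.8% of all genes). By more than 3 approximate SE, 0 and 2 neutrophil markers were lower (7.22% and 9.82% of all genes). Hepatocyte markers summed to 3469, 954 and 377, with 6 and 8 of 8 lower, and 5 and 7 by more than 3 approximate SE, beside the same shares. Platelet markers, which could accompany blood, summed to 46.8, 88.6 and 236, nearly all of it *Pf4* (37.2, 82.7 and 221). Of the 3 platelet markers kept, 2 were lower and 1 higher on BDL day 3 (29.2% and 19.2% of all genes). On BDL day 14, 1 of them was lower and 2 were higher (28.8% and 21.2% of all genes). Endothelial markers summed to 882, 561 and 863, with 5 of 6 lower on BDL day 3 (29.2% of all genes). On BDL day 14, 2 of the 6 were lower, near the share of all genes (28.8%). By more than 3 approximate SE, 0 endothelial markers were lower at either time. The part of these cells, of the lysis step or of any 1 library in the globin differences was not tested.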

How the data were processed

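GFP(+) liver cells were profiled by mRNA sequencing, and 12 libraries are labelled. Per the labels and the study's methods, the authors aligned reads to mm10 with STAR in Partek Flow (the version differs between the sources, with 2.6.1d in the labels) and counted them per GENCODE gene, with upper quartile normalization. The deposited signal values used here are the least squares mean of normalized counts per group, the total, the highest library, and the arithmetic and geometric mean. The deposited totals matched 10 libraries (3, 3 and 4), with a deviation of at most 0.678%. Depth per library is unknown, and there are 0 columns per library, so no test was run. The authors' own comparison columns (p-value, FDR, ratio, fold change and limits) were not used.

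Log2 ratios of group means were computed with Python 3.11.15, numpy 2.4.6 and pandas 2.3.3 after a filter of 10 summed counts, and a fold above 1.5 was counted. The planned designs held no test. The approximate log2 SD was taken from the group means and the geometric mean with 7 residual degrees of freedom, and this measure was added after the data were seen. Libraries were simulated with natural-log SDs of 0.5 and 0.9, each equal in all groups. For genes of mean 20 or more, its median was 0.983 and 0.953 of the true SD. Genes of lower mean and unequal spreads were not covered by these values. In either simulation, 0 of 900 limits on a library were broken. Means of up to 4 times the lowest mean of a group were read as the floor (0.512, 0.2916 and 0.244). The study describes the libraries as biological replicates. Of 2 repeated symbols the first listing was used.

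The genes and lists were chosen with earlier results of these data known. The genes named are the 7 members, in each list up to 4 genes with the highest mean and any that a count of 5 or fewer covers, and the 10 genes nearest to the globins. *Trim10*, *Tfrc*, *Pgam1* and *Prom1* were named beyond this rule after their values were seen, and some genes that the rule covers are not reported here. Alternatives were other scalings, pseudocounts, filters and folds, and the highest library left out (for the lists, an alternative chosen after seeing the data).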

Additional observations from a re-analysis of the deposited data

How the results depend on the processing

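No paired analysis was possible because the table holds no values per library, and leaving out each replicate was not possible for the same reason. The counts of the 7 genes lower than day 0 stayed at 7 of 7 in both comparisons under every alternative, except 6 of 6 with a mean of at least 10 and 5 of 7 on BDL day 3 with 3 approximate SE. For BDL day 14 against BDL day 3 the count of 4 lower became 1 with quantile normalization, 1 with equal sums outside the globins, 0 with a fold above 2 and 0 with 3 approximate SE, and the 1 higher (*Slc4a1*) became 0 with a mean of at least 10 and 0 with 3 approximate SE. Over the alternatives, the log2 ratios of single genes ran from -5.38 to -2.62 on BDL day 3, from -4.57 to -3.14 on BDL day 14 and from -0.94 to 1.80 between the BDL groups. The filters cannot change a gene's own ratio, and median-ratio scaling and equal sums shift all genes alike, so these say nothing about a single gene or about the genes nearest to the globins. With a pseudocount of 1, *Slc4a1* moved to -3.90 on BDL day 3.

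Over all genes, no filter gave 6139 lower on BDL day 3, 5706 lower on BDL day 14 and 4452 higher on BDL day 14 against BDL day 3, against 3760, 3707 and 2733 with the filter. A mean of at least 10 gave 1096 lower on BDL day 3, 1265 lower and 1709 higher on BDL day 14, and 1271 lower and 1030 higher between the BDL groups. A fold above 2 gave 960 higher on BDL day 3, 1259 higher on BDL day 14, and 1297 lower and 1688 higher between the BDL groups. With 3 approximate SE, a rule chosen after the data were seen, there were 930 lower and 778 higher, 1266 lower and 1022 higher, and 722 lower and 729 higher. The higher counts follow from more genes tested and the lower ones from fewer genes or a stricter rule. What depth limits is unknown beyond the floor (0.2916 on BDL day 3 and 0.244 on BDL day 14). The BDL day 3 value of *Slc4a1* (0.517) lies close to it, and the BDL day 14 value (1.57) lies further above.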

Other observations

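Other globin genes in the table were low. *Cygb*, which encodes cytoglobin of stellate cells and fibroblasts and is no red cell gene, had means of 23.6 at day 0, 0.788 on BDL day 3 and 8.62 on BDL day 14, with a highest library of 32.1. Its log2 ratio was -4.90 on BDL day 3 (approximate SE 0.918) and -1.45 on BDL day 14 (approximate SE 0.859). *Hbq1a*, a second theta globin gene that did not pass the filter, had 2.12, 0.394 and a value at the floor.

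*Bpgm* made up 0.382%, 0.307% and 0.458% of the globin sum in the 3 groups, and *Slc4a1* made up 0.0293%, 0.00678% and 0.0356%. The number of genes with a mean above that of each red cell gene differed widely between groups, with *Bpgm* ranked 281 at day 0, 4052 on BDL day 3 and 4556 on BDL day 14, and *Alas2* ranked 79, 1014 and 1401.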
